A study of Homo sapiens with 18 samples.

Results

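The RNA of 10 cytokine genes of the IL-6, IL-10 and IL-12 families was followed in the monocytic line THP-1, which derives from a human leukaemia. The genes were IL6, LIF, OSM and CLCF1 of the IL-6 family, IL10, and IL12A, IL12B, IL23A, IL27 and EBI3 of the IL-12 family, taken by symbol from the 57500 genes with counts. The cells carried a lentiviral short hairpin RNA without a target (shNT), one against NR4A2 (shNR4A2) or one against NR4A3 (shNR4A3), and every line was kept in the puromycin that selects the vector. Whether a line is 1 clone, and whether a target had more than 1 hairpin, is not given in the sources used here. All cells first spent 2 h in buffered DMEM with serum, and each line was then left unstimulated (control) or received lipopolysaccharide (LPS) at 2.5 μg/ml for 2 h, giving 6 groups of 3 libraries, 18 in all. Total counts ran from 16171161 to 23929138 per library. By the study's description the replicates were independent experiments, and the labels do not say whether a replicate number marks the same experiment in each line.

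IL-6 family cytokines signal through receptor complexes that share the chain gp130, encoded by IL6ST, to the JAK kinases and STAT3. The IL-12 family consists of paired subunits. IL12B encodes the chain that joins the IL12A product to form IL-12 or the IL23A product to form IL-23, and EBI3 joins the IL27 product to form IL-27. IL-10 acts through IL10RA and IL10RB and restrains inflammatory gene expression in myeloid cells. In monocytes LPS switches on many of these genes through Toll-like receptor signalling and NF-κB. NR4A2 and NR4A3 are orphan nuclear receptors and are themselves early response genes.

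The labelled cell type was checked against marker genes. Levels are given as TPM, the count divided by exon length and scaled to a common total per library. The mean level of SPI1, a transcription factor of the myeloid lineage, was 571 TPM in shNT control cells, and the lysozyme gene LYZ reached 192 TPM there. The T cell gene CD3D did not exceed 0.380 TPM in any group mean and the B cell gene MS4A1 stayed at or below 0.0225 TPM. Group means of the summed markers were 0.221 to 0.644 TPM for T cells (3 genes), 4.63 to 5.89 TPM for B cells, 0.989 to 1.45 TPM for NK cells, 0.454 to 0.805 TPM for epithelium and 0.974 to 1.80 TPM for fibroblasts. CD3D for T cells, KLRF1 for NK cells, KRT18 or CDH1 for epithelium and COL1A1 or PDGFRB for fibroblasts were the most abundant genes of their lists, and CD2 had no count in any LPS group. Of the 10 monocytic markers, all had counts in every group, and SPI1 or LYZ was the most abundant. Their summed level was 1291, 1188 and 1162 TPM in shNT control libraries and 1433, 1244 and 1236 TPM with LPS. It was higher in both knockdown lines, at 1980, 1729 and 1856 TPM (shNR4A2 control), 2079, 1812 and 1823 TPM (shNR4A2 with LPS), 2436, 1969 and 2097 TPM (shNR4A3 control) and 2453, 2038 and 2254 TPM (shNR4A3 with LPS). LYZ differed most from shNT among them with LPS, by a log2 fold change of 1.76 ± 0.09 (SE, n = 3 against 3) in shNR4A2 cells and 2.29 ± 0.13 in shNR4A3 cells. CSF1R, the receptor of a macrophage growth factor, was higher by 0.87 ± 0.15 and 1.10 ± 0.13. In mean level with LPS, LYZ went from 157 TPM in shNT to 509 and 732 TPM in shNR4A2 and shNR4A3 cells, and SPI1 from 748 to 919 and 1048 TPM, so these 2 genes made up most of the higher sum. The other markers did not all follow. In shNR4A2 cells LYZ and CSF1R were called, and in shNR4A3 cells SPI1 (0.55 ± 0.12) and the integrin gene ITGAM (0.82 ± 0.17) as well, while CD14, CD33, CD68, FCGR1A, CD4 and MPO were not called in either line. CD14, the LPS co-receptor, was at 11.6 to 21.7 TPM in shNT, 23.8 to 45.5 TPM in shNR4A2 and 16.9 to 38.4 TPM in shNR4A3 libraries with LPS, apart from shNT in the first and overlapping it in the second. Its log2 fold changes were 1.15 ± 0.32 (adjusted p = 0.0618) and 0.93 ± 0.33 (adjusted p = 0.130), and those of CD68 0.39 ± 0.25 and 0.60 ± 0.27. In shNR4A2 and shNR4A3 cells FCGR1A was at 0.06 ± 0.08 and -0.19 ± 0.08, CD33 at 0.06 ± 0.10 and -0.12 ± 0.09, CD4 at 0.15 ± 0.08 and 0.06 ± 0.07, and MPO at -0.10 ± 0.24 and 0.31 ± 0.22. The part of this shift in the cytokine differences between lines was not tested.

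The hairpin targets were lower in their own lines. NR4A2 with LPS stood at 62.2, 74.7 and 51.3 TPM in shNT cells and at 20.5, 28.3 and 14.8 TPM in shNR4A2 cells, a log2 fold change of -1.52 ± 0.19 (SE, adjusted p = 0.00265, edgeR quasi-likelihood test). NR4A3 with LPS stood at 30.9, 32.3 and 31.9 TPM in shNT cells and at 17.0, 18.2 and 16.7 TPM in shNR4A3 cells, a log2 fold change of -0.82 ± 0.08 (adjusted p = 0.000556). Without LPS the same changes were -0.91 ± 0.23 for NR4A2 (adjusted p = 0.0359) and -2.47 ± 0.49 for NR4A3 (adjusted p = 0.00767). The NR4A3 value rests on few counts, 20, 21 and 17 in shNT and 5, 3 and 1 in shNR4A3 libraries. DESeq2 gave no adjusted p for it. The NR4A2 call without LPS was lost without shNT replicate 1 or 3 or shNR4A2 replicate 1 or 2 (adjusted p up to 0.124). In shNR4A3 cells with LPS, NR4A2 was at 41.8, 60.7 and 38.3 TPM, which differed from shNT by -0.36 ± 0.16 (adjusted p = 0.198). Blocking on the replicate number made this a call (adjusted p = 0.00132). NR4A1, the third gene of the family, had mean levels with LPS of 18.1 ± 4.13, 15.1 ± 2.11 and 18.2 ± 1.64 TPM in shNT, shNR4A2 and shNR4A3 cells (SD, n = 3), and was not called in either line. Both targets rose with LPS in every line, so the knockdown lines with LPS held more of their target RNA than unstimulated shNT cells.

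Of the 10 genes, 6 had an entry among the RefSeq promoters (GRCh38.p14), in 8 windows, and IL27, LIF, OSM and CLCF1 had none. The stretches upstream of IL6, IL23A and EBI3 are shown, genes that rose with LPS and whose windows each held a match to the NF-κB site. IL12B and LIF rose as well, but the IL12B window lay wholly in an exon and LIF had no window. Each runs from 250 bases before the RefSeq start to the first base that the count tables place in an exon, on the + strand. Capitals mark matches to the NF-κB site (the κB motif) or to the AP-1 motif TGANTCA, searched on both strands.
IL6, chr7:22726950-22727146: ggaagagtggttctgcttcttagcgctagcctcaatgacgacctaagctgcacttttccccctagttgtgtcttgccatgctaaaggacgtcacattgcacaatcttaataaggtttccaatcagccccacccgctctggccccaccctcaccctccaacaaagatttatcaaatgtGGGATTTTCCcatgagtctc
IL23A, chr12:56338634-56338874: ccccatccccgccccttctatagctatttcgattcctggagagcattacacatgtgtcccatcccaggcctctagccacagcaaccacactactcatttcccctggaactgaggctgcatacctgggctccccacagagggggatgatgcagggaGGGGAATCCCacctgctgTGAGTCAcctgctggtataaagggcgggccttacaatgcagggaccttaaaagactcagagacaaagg
EBI3, chr19:4229273-4229497: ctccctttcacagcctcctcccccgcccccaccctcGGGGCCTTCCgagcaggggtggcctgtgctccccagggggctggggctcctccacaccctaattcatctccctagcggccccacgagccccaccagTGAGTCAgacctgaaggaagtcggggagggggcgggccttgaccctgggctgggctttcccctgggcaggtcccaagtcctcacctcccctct

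Positions are counted back from the RefSeq start. IL6 held 1 κB match at -73 to -64, IL23A held a κB match at -95 to -86 and an AP-1 match at -77 to -71, and EBI3 held a κB match at -214 to -205 and an AP-1 match at -118 to -112. None of these matches overlapped another. IL12A also held a κB match, at -44 to -35, within a window of which 85 bases are exon in the count tables, and 1 of the 3 IL10 windows held an AP-1 match. The IL12B window lay wholly in an exon of the count tables and held no match. The 250 upstream bases held a κB match in 9.95% and an AP-1 match in 6.59% of the 34943 RefSeq windows. The cyclic AMP response element TGACGTCA (1.63% of windows) and the NR4A response element AAAGGTCA (1.04% of windows), the site that NR4A receptors bind as monomers, were not among the letters of the members' windows. A match describes letters and not binding.

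Without LPS the cytokine genes were low. IL23A (ENSG00000110944, chr12:56334174-56340410) led in shNT control cells at 12.03 ± 0.864 TPM (SD, n = 3), followed by OSM (ENSG00000099985, chr22:30262829-30266840) at 7.02 ± 2.63 TPM and CLCF1 (ENSG00000175505, chr11:67364168-67374177) at 2.85 ± 1.07 TPM. The libraries of these 3 genes did not overlap one another. LIF (ENSG00000128342, chr22:30240447-30246851), EBI3 (ENSG00000105246, chr19:4229498-4237531), IL12A (ENSG00000168811, chr3:159988750-159996019) and IL27 (ENSG00000197272, chr16:28499362-28512051) lay between 0.607 and 0.765 TPM, each overlapping the next of these 4, and were apart from CLCF1 above and from IL12B below. IL12B (ENSG00000113302, chr5:159314783-159330887) was at 0.160 TPM and IL10 (ENSG00000136634, chr1:206767602-206772494) at 0.0943 TPM. IL6 (ENSG00000136244, chr7:22725884-22732002) had no count in the 3 shNT libraries, which allows up to 0.0519 CPM (counts scaled by the library total) from counting error alone. In shNR4A3 control cells OSM and IL23A stood first and second, at 9.35 ± 0.261 and 8.68 ± 1.44 TPM, and their libraries overlapped. The coordinates are those of the count tables on GRCh38.

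**Figure D1:**
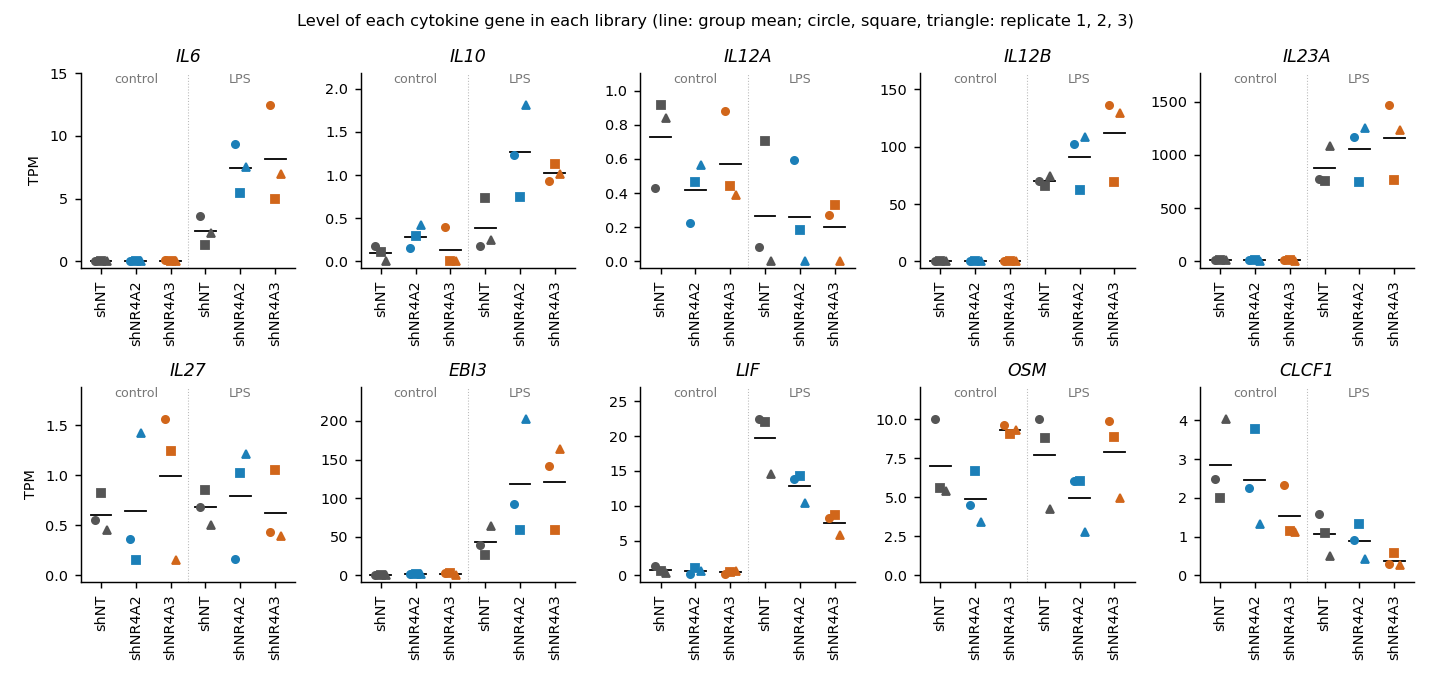
Level of each of the 10 genes in TPM (linear axes, a scale for each gene) in the 18 libraries, with unstimulated groups to the left and LPS groups to the right of the dotted line. Points are libraries, marked by replicate number, and the black line is the group mean; IL23A in shNT cells goes from 12.03 to 873 TPM.

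With LPS the order changed. In shNT cells IL23A reached 776, 754 and 1088 TPM and stood 149th of all genes by mean level. IL12B followed at 69.9, 65.7 and 74.9 TPM, EBI3 at 39.8, 26.8 and 63.8 TPM, LIF at 22.5, 22.0 and 14.5 TPM and OSM at 10.1, 8.78 and 4.26 TPM. None of these 5 genes overlapped its neighbour. IL6, CLCF1, IL27, IL10 and IL12A came after them, each overlapping the next. The summed level of the 10 genes rose from 25.0 ± 1.82 to 1019 ± 201 TPM in shNT cells, and IL23A alone made up 84.0% to 87.1% of it with LPS. In both knockdown lines EBI3 passed IL12B in mean level (118 against 91.3 TPM in shNR4A2 cells, 121 against 112 TPM in shNR4A3 cells), but the libraries of the pair overlapped.

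LPS raised the same 5 genes, IL6, IL12B, IL23A, EBI3 and LIF, in each of the 3 lines by the test. Of the 10 genes, 7 passed the filter on low counts in each line, and IL10, IL12A and IL27 did not. In shNT cells 5 rose and 1 fell among the 7 tested, where 11.6% of the 15711 genes tested rose and 13.3% fell. In shNR4A2 cells 5 rose and 0 fell (background 9.23% and 10.1%), and in shNR4A3 cells 5 rose and 1 fell (background 13.1% and 15.0%). The median log2 fold change of the tested members was 6.07, 6.31 and 6.20 in the shNT, shNR4A2 and shNR4A3 lines, beside -0.01, -0.02 and -0.01 over all genes tested. IL6, IL12B and LIF in each line, and EBI3 in shNT and shNR4A3 cells, passed the filter only through their LPS libraries, and CLCF1 in each line only through its control libraries. These counts and medians, and the LPS calls of these genes in those lines, therefore describe the genes and support nothing further. In bulk RNA, more cells that express a gene and more RNA per cell cannot be told apart.

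IL23A, the subunit particular to IL-23, was at 11.1, 12.8 and 12.2 TPM in shNT control libraries, at 10.1, 11.7 and 7.90 TPM in shNR4A2 and at 8.73, 10.1 and 7.21 TPM in shNR4A3. With LPS it was at 1172, 746 and 1254 TPM in shNR4A2 cells and at 1472, 760 and 1232 TPM in shNR4A3 cells. The libraries with LPS were all far above those without it. The log2 fold change was 6.41 ± 0.18 (SE, adjusted p = 5.74e-12) in shNT, 7.02 ± 0.27 (adjusted p = 2.67e-09) in shNR4A2 and 7.30 ± 0.30 (adjusted p = 2.32e-08) in shNR4A3 cells, by edgeR.

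IL12B, the chain common to IL-12 and IL-23, went from 7 counts over the 3 shNT control libraries to 3400 counts with LPS. Its log2 fold change was 8.91 ± 0.21 in shNT cells, 8.38 ± 0.35 in shNR4A2 cells and 8.17 ± 0.39 in shNR4A3 cells (adjusted p = 8.71e-13, 5.37e-09 and 8.00e-08 by edgeR). Per total count the shNT ratio was 452 (exact 95% interval 219 to 1124, counting error only). EBI3 rose by 6.07 ± 0.42, 6.31 ± 0.50 and 6.20 ± 0.47 in the same order of lines (adjusted p = 1.10e-07, 1.69e-06 and 3.21e-06). LIF, a gp130 cytokine known for its part in stem cell maintenance, rose by 4.86 ± 0.28, 4.66 ± 0.34 and 4.26 ± 0.32 (adjusted p = 1.60e-08, 8.98e-07 and 2.97e-06). All of these calls were kept with any 1 library left out. For IL12B and LIF, and for EBI3 in shNT and shNR4A3 cells, this adds no support, since only their LPS libraries passed the filter.

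IL6 had 0, 0 and 0 counts in shNT control libraries and 43, 15 and 29 counts with LPS. It had 0, 0 and 0 against 96, 61 and 91 counts in shNR4A2 cells, and 1, 0 and 0 against 140, 46 and 86 counts in shNR4A3 cells. Taking a floor of 3 counts over the control group, the ratio of LPS to control per total count was 27.0 in shNT and 94.2 in shNR4A2 cells. These are not lower bounds, since the exact 95% intervals, with 0 control counts, began at 21.5 and 76.0 (counting error only). In shNR4A3 cells, with 1 control count, the ratio was 253 (exact 95% interval 44.9 to 10011, counting error only). The difference was called in each line (adjusted p = 0.000106, 4.61e-06 and 2.09e-05 by edgeR). These few IL6 counts gave low levels, with 1.31 to 3.62 TPM in shNT cells. The antisense gene AC073072.1 shares 428 of the 2069 exon bases of IL6 and had at most 7 counts in any group.

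OSM, the gp130 cytokine oncostatin M, was not called in any line. It was at 10.1, 5.61 and 5.40 TPM in shNT control libraries and at 10.1, 8.78 and 4.26 TPM with LPS, and the groups overlapped. Its log2 fold changes were 0.33 ± 0.30, 0.28 ± 0.34 and -0.02 ± 0.24 in shNT, shNR4A2 and shNR4A3 cells (adjusted p = 0.481, 0.616 and 0.961). CLCF1, a ligand of the CNTF receptor, went the other way. It was at 2.49, 2.00 and 4.04 TPM in shNT control libraries and at 1.59, 1.09 and 0.489 TPM with LPS, with no overlap. Its log2 fold change was -1.21 ± 0.40 in shNT cells (adjusted p = 0.0421), -1.20 ± 0.48 (adjusted p = 0.101) with the NR4A2 hairpin and -1.86 ± 0.52 (adjusted p = 0.0199) with the NR4A3 hairpin. With the replicate number as a block, the shNR4A2 value was called as well (adjusted p = 0.0215, where 30.1% of genes were called). CLCF1 was tested only because its control libraries, the higher group, passed the filter. Its calls rest on 11 to 89 counts per group and were lost in shNT cells with any library but LPS replicate 1 left out (adjusted p from 0.0527 to 0.184). In shNR4A3 cells the call was lost without control replicate 1, LPS replicate 1 or LPS replicate 3 (adjusted p = 0.0955, 0.0724 and 0.0919). DESeq2 called neither (adjusted p = 0.114 and 0.0720). AP003419.1, which shares 61 exon bases with CLCF1 on the same strand, had at most 4 counts in any group.

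**Figure D2:**
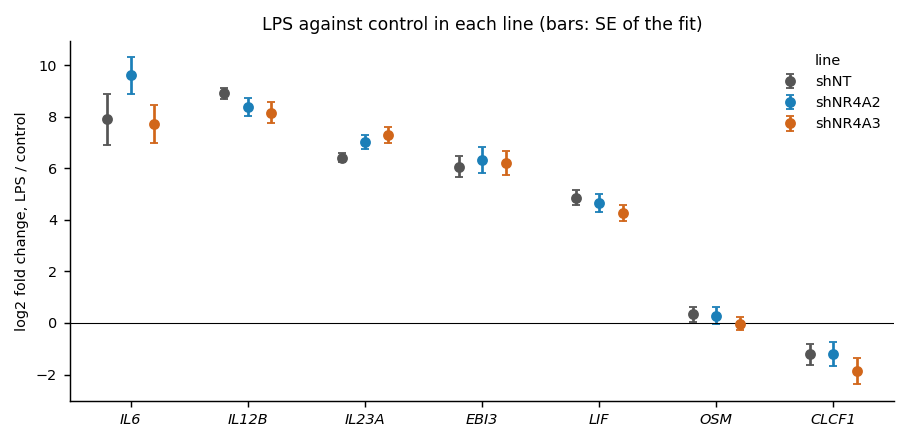
Log2 fold change of LPS against control (y axis) for the 7 genes tested in each line, with bars for the SE of the edgeR fit on 3 against 3 libraries. IL12B, IL23A, EBI3 and LIF lie between 4.26 and 8.91, OSM lies near 0 and CLCF1 lies below 0. IL6 had no control count in shNT and shNR4A2 cells and 1 in shNR4A3 cells. The place and bar of its points are therefore set by the fit. In shNT and shNR4A2 cells only the lower ends of the exact intervals in the text hold.

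The 3 genes under the filter stayed near the limit of detection. IL27 had 12 to 18 counts per group and its LPS and control libraries overlapped in every line. IL12A had 23 control and 9 LPS counts in shNT, 15 and 8 in shNR4A2 and 17 and 6 in shNR4A3 cells, too few for the fit across genes. The ratios per total count were 0.364 (exact 95% interval 0.148 to 0.816, counting error only), 0.608 (0.223 to 1.53) and 0.328 (0.106 to 0.871). Its LPS libraries lay below all control libraries in shNR4A3 cells and overlapped them in the other lines. IL12A shares 78 exon bases with the antisense gene IL12A-AS1, which had 92 to 432 counts per group, and the strand setting of the counting is not given in the sources used here, so reads of the 2 genes may not be separable there. IL10 went from 3 to 13 counts in shNT cells, a ratio of 4.03 per total count with an exact 95% interval of 1.11 to 22.0 for counting error only. It went from 10 to 41 counts in shNR4A2 cells (ratio 4.67, 2.30 to 10.5) and from 4 to 32 counts in shNR4A3 cells (ratio 7.43, 2.63 to 28.9). LPS and control libraries of IL10 overlapped in shNT cells and did not overlap in either knockdown line. An exact permutation test of 3 against 3 libraries cannot go below p = 0.10 for any single gene.

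The partners of each cytokine were far apart in RNA level. With LPS the IL23A level was 12.4 ± 1.87 times that of IL12B in shNT libraries (SD, n = 3, ratio of TPM), 11.6 ± 0.286 times in shNR4A2 and 10.4 ± 0.782 times in shNR4A3 libraries. The IL12A level was at most 0.0108 of that of IL12B in any LPS library, and had no count in the third library of each line. RNA for both chains of IL-23 was therefore present at 2 h, and IL12A RNA, for the other chain of IL-12, was near the limit of detection. EBI3 exceeded IL27 by 31.5 to 126 times in shNT, 57.4 to 577 times in shNR4A2 and 56.4 to 412 times in shNR4A3 libraries, ratios that rest on 1 to 9 IL27 counts a library.

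Before LPS, none of the cytokine genes tested was called in either knockdown line. IL6, IL10, IL12A, IL12B and IL27 did not pass the filter in either comparison, nor did EBI3 for shNR4A3. Of the 5 genes tested between shNR4A2 and shNT control cells, 0 were called, where 6.45% of all genes tested were called. Of the 4 tested between shNR4A3 and shNT control cells, 0 were called, where 7.23% of all genes were. At an unadjusted p under 0.05 edgeR gave 1 gene in each (EBI3 and CLCF1), and DESeq2 gave 0 calls in both. Over all genes, 3358 of 15800 and 3206 of 15322 had an unadjusted p under 0.05 by edgeR. EBI3 stood at 0.821, 0.973 and 0.444 TPM in shNT and at 1.68, 1.78 and 1.92 TPM in shNR4A2 control libraries, without overlap. Its log2 fold change was 1.25 ± 0.43 (adjusted p = 0.113), and it passed the filter through the shNR4A2 libraries alone. The corresponding values were -0.28 ± 0.21 for IL23A (adjusted p = 0.507) and -0.54 ± 0.31 for OSM (adjusted p = 0.353) in shNR4A2 cells, and -0.42 ± 0.21 for IL23A (adjusted p = 0.269) and 0.45 ± 0.24 for OSM (adjusted p = 0.303) in shNR4A3 cells. Without shNT control replicate 1 the OSM difference in shNR4A3 cells was called (0.81, adjusted p = 0.0452). The IL23A libraries of shNR4A3 all lay below those of shNT. Among the genes not tested, EBI3 in shNR4A3 was 2.09 to 3.03 times the shNT level within a replicate number, with overlapping libraries. The IL12B libraries of both knockdown lines lay above those of shNT, on 7, 16 and 18 counts in the shNT, shNR4A2 and shNR4A3 groups.

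With LPS, IL6 and EBI3 were higher and LIF lower in shNR4A3 cells than in shNT cells by the test, and IL6 was higher in shNR4A2 cells. Of the 7 genes tested in shNR4A2 cells 1 was called higher and 0 lower, where 4.31% and 2.65% of all genes were. Of the 7 tested in shNR4A3 cells 2 were called higher and 1 lower, where 3.99% and 2.46% of all genes were. Both comparisons use the same shNT libraries. Libraries with the same replicate number deviated together, and with that number as a block 6 members were called in shNR4A2 and 5 in shNR4A3 cells. The blocked fit called 28.1% and 21.8% of all genes in these comparisons. It leaves 2 residual degrees of freedom per gene and borrows the spread across genes.

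IL6, the gp130 cytokine of fever and the acute phase response, was at 3.62, 1.31 and 2.25 TPM in shNT libraries with LPS. It was at 9.38, 5.46 and 7.52 TPM in shNR4A2 and at 12.5, 4.95 and 6.96 TPM in shNR4A3 libraries. Each knockdown library lay above every shNT library, and within a replicate number IL6 was 2.59 to 4.18 times higher in shNR4A2 and 3.09 to 3.79 times higher in shNR4A3. The log2 fold change was 1.69 ± 0.37 (adjusted p = 0.0272 by edgeR) and 1.83 ± 0.43 (adjusted p = 0.0343). Both calls rest on few libraries. Without shNT replicate 2, shNT replicate 3 or shNR4A2 replicate 1 the shNR4A2 value was not called (adjusted p = 0.0852, 0.0894 and 0.0907), and the shNR4A3 value was not called without shNT replicates 2 or 3 or shNR4A3 replicates 1 or 3 (adjusted p from 0.0675 to 0.116). The values were 1.73 ± 0.23 and 1.82 ± 0.21 with the block, called in both lines.

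EBI3, the partner chain of IL-27, followed at a higher level. It was at 39.8, 26.8 and 63.8 TPM in shNT, 91.8, 58.6 and 203 TPM in shNR4A2 and 141, 59.3 and 163 TPM in shNR4A3 libraries with LPS. Replicate 2 was the lowest in each line, and the lowest knockdown library lay within the shNT range. Within a replicate number EBI3 was 2.19 to 3.18 times higher in shNR4A2 and 2.21 to 3.55 times higher in shNR4A3. The log2 fold change was 1.501 ± 0.46 in shNR4A2 (adjusted p = 0.0852 by edgeR, 1.30e-17 with the block) and 1.54 ± 0.40 in shNR4A3 cells (adjusted p = 0.0483). The shNR4A3 call was lost without shNT replicate 1 or 2 or shNR4A3 replicate 1 or 3 (adjusted p from 0.131 to 0.151) and in DESeq2 (adjusted p = 0.0824), and the block kept it (adjusted p = 1.18e-06). The shNR4A2 difference was called without shNR4A2 replicate 2 (1.84, adjusted p = 0.0147).

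LIF moved the opposite way. It was at 22.5, 22.0 and 14.5 TPM in shNT, 13.9, 14.3 and 10.3 TPM in shNR4A2 and 8.29, 8.70 and 5.74 TPM in shNR4A3 libraries with LPS. In each replicate number the shNT library was highest and the shNR4A3 library lowest. The log2 fold change against shNT was -1.32 ± 0.19 in shNR4A3 cells (adjusted p = 0.00411 by edgeR), and this call was kept with any 1 library left out (adjusted p from 0.00223 to 0.0195). In shNR4A2 cells it was -0.56 ± 0.18 (adjusted p = 0.0950, and 2.60e-05 with the block). Both LIF-AS1 and AC004264.1, antisense genes with shared exon bases, had at most 8 counts in any group, against 469 to 1356 LIF counts with LPS.

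**Figure D3:**
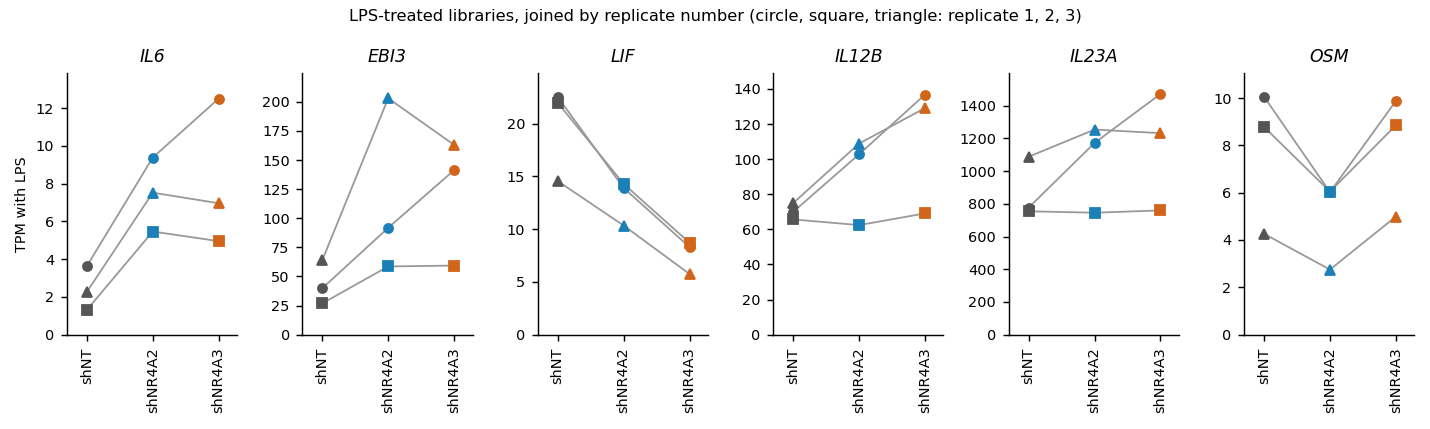
Levels in TPM (linear axes from 0) of 6 genes in the 9 LPS libraries, with grey lines joining libraries of the same replicate number across the 3 lines. The 3 lines for LIF fall from shNT to shNR4A3, those for IL6 and EBI3 rise from shNT to both knockdowns, and replicate 2 of IL12B and IL23A stays nearly level.

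For the IL-23 pair the knockdown differences were smaller and depended on the replicate. IL12B was at 103, 62.4 and 109 TPM in shNR4A2 and at 137, 69.1 and 129 TPM in shNR4A3 libraries, so that replicate 2 lay below the shNT range of 65.7 to 74.9 TPM in the first and within it in the second. Its log2 fold change was 0.45 ± 0.21 (adjusted p = 0.242) and 0.74 ± 0.23 (adjusted p = 0.0943). IL23A showed 0.34 ± 0.23 (adjusted p = 0.426) and 0.47 ± 0.25 (adjusted p = 0.289). With the block all 4 values were called, for IL12B with adjusted p = 0.000206 and 0.00174 and for IL23A with adjusted p = 0.00179 and 0.0338. The ratio of knockdown to shNT in replicate 2 was 0.95 and 1.05 for IL12B and 0.988 and 1.01 for IL23A, beside 1.45 to 1.96 for IL12B and 1.13 to 1.90 for IL23A in the other replicates. Without shNR4A2 replicate 2 the IL12B difference was called (0.69, adjusted p = 0.00500), and without shNR4A3 replicate 2 those of IL12B (1.01, adjusted p = 0.000201) and IL23A (0.72, adjusted p = 0.0178) were.

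OSM was lower in shNR4A2 than in shNT cells in all 3 replicate numbers with LPS, at 0.599, 0.689 and 0.645 times the level. The log2 fold change was -0.59 ± 0.36 (adjusted p = 0.375), and it was called with the block (-0.58 ± 0.19, adjusted p = 0.0190). In shNR4A3 cells it was 0.10 ± 0.33 (adjusted p = 0.885), and 0.12 ± 0.16 with the block (adjusted p = 0.635). IL10 passed the filter for shNR4A3, through the knockdown libraries alone, and not for shNR4A2. It was at 0.176, 0.729 and 0.244 TPM in shNT, 1.23, 0.749 and 1.81 TPM in shNR4A2 and 0.934, 1.13 and 1.02 TPM in shNR4A3 libraries. Every knockdown library lay above the shNT libraries, from 2 to 8 counts in shNT and 8 to 21 counts in the knockdown lines. Its log2 fold change in shNR4A3 cells was 1.47 ± 0.51 (adjusted p = 0.122, and 0.0548 with the block). Without the filter on low counts IL10 was called for shNR4A2 and not for shNR4A3.

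**Figure D4:**
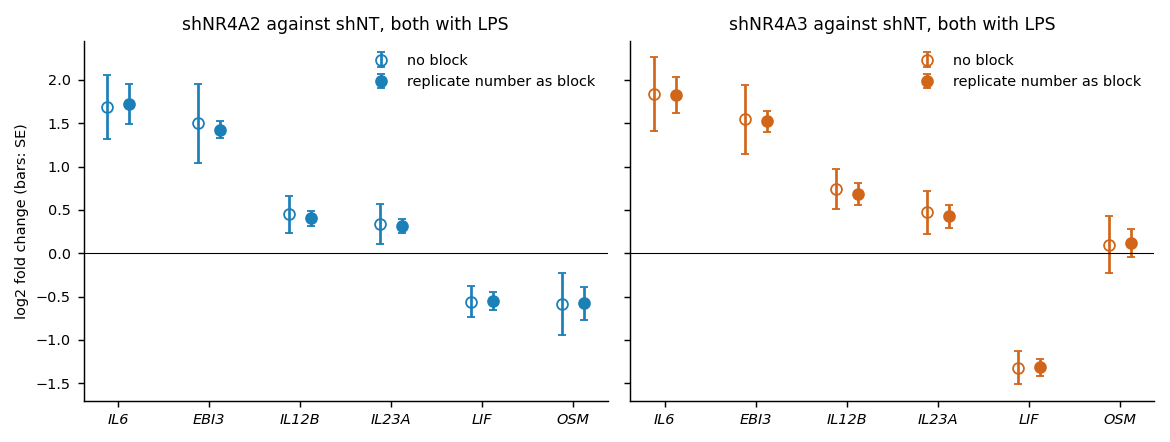
Log2 fold change of each knockdown line against shNT with LPS (y axis) for 6 genes, without a block (open) and with the replicate number as a block (filled), with bars for the SE of the edgeR fit. The pairs differ little in place and the SE is smaller with the block, as for IL12B in shNR4A2 cells at 0.45 ± 0.21 against 0.41 ± 0.09.

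The 2 knockdown lines were also set against each other with LPS. Of the 7 members tested 0 were called, where 2.33% of all genes were. At an unadjusted p under 0.05 edgeR gave 1 member, LIF, beside 2773 of all 15539 genes tested. DESeq2 called LIF. LIF was 1.64 to 1.80 times higher in shNR4A2 than in shNR4A3 within a replicate number, a log2 fold change of 0.76 ± 0.19 (adjusted p = 0.0793). With the block LIF (adjusted p = 0.000226), IL12B (-0.27 ± 0.06, adjusted p = 0.00671) and OSM (-0.69 ± 0.17, adjusted p = 0.0102) were called, where 23.6% of all genes were. For IL6 the difference was -0.14 ± 0.37 and for EBI3 -0.04 ± 0.49 without the block.

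Whether a hairpin changed the size of the LPS response was tested by the interaction of line and LPS. No gene at all was called for shNR4A2 (0% of 16674) or shNR4A3 (0% of 16428). At an unadjusted p under 0.05 edgeR gave 365 and 824 genes, and DESeq2 called 2 and 8 genes. Of the 6 and 7 members with an estimate none was called. IL23A reached an unadjusted p under 0.05 for shNR4A3, with a difference of 0.89 ± 0.39 in log2 fold change (adjusted p = 0.975), and DESeq2 called none. Without the filter on low counts this IL23A difference was called (0.91 ± 0.19, adjusted p = 0.000883), among 138 genes over the whole table. In the same line the difference for LIF was -0.60 ± 0.58 and that for EBI3 0.13 ± 1.36. EBI3 had 15, 41 and 36 counts in the shNT, shNR4A2 and shNR4A3 control groups, and no interaction is given for IL6, which had 0, 0 and 1 there. The knockdown differences above are differences in level with LPS and, apart from IL23A in that unfiltered fit, were not called as differences in response.

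The other genes of these pathways were taken from 4 lists, and their counts with LPS in shNT cells stand beside 11.6% of all genes that rose and 13.3% that fell. Among 10 further ligands of the families, 2 passed the filter, CNTF among them, and neither was called in any LPS comparison. Of 12 receptor chains 9 were tested, and in shNT cells 3 rose with LPS, 1 fell and 5 were not called. IL6ST, the shared gp130 chain, rose by 1.32 ± 0.14, IL10RA, the ligand-binding chain for IL-10, by 1.19 ± 0.22 and IL12RB2, a chain of the IL-12 receptor, by 0.90 ± 0.11. IL6R, the chain that binds IL-6, was at -0.60 ± 0.09. The adjusted p-values were 8.10e-06, 0.00136, 2.57e-05 and 0.000290 by edgeR. The median of the 9 chains was 0.12, beside -0.01 for all genes.

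Of the 10 signalling and feedback genes 3 rose, 2 fell and 5 were not called with LPS in shNT cells. SOCS3, the STAT3-induced inhibitor of gp130 signalling, rose by 5.36 ± 0.14, and the kinase PIM1 and the transcription factor STAT4 by 1.86 ± 0.15 and 1.71 ± 0.22. The inhibitors CISH and SOCS1 were at -2.14 ± 0.19 and -2.0 ± 0.31. Those not called included the kinases JAK1, JAK2 and TYK2 and the transcription factor STAT3. Of the 13 genes for transcription and RNA decay 11 rose, 0 fell and 2 were not called, with a median of 1.04. NFKBIZ, a nuclear IκB protein needed for induction of IL6 and IL12B, rose by 7.40 ± 0.12, and ZC3H12A, the ribonuclease Regnase-1 that degrades IL6 and IL12B transcripts, by 5.38 ± 0.13. The NF-κB subunits NFKB1 and REL rose by 3.20 ± 0.13 and 2.88 ± 0.10. The same 3 lists held 3, 3 and 10 genes that rose in shNR4A2 cells (9.23% of all genes) and 3, 5 and 11 that rose in shNR4A3 cells (13.1% of all genes).

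**Figure D5:**
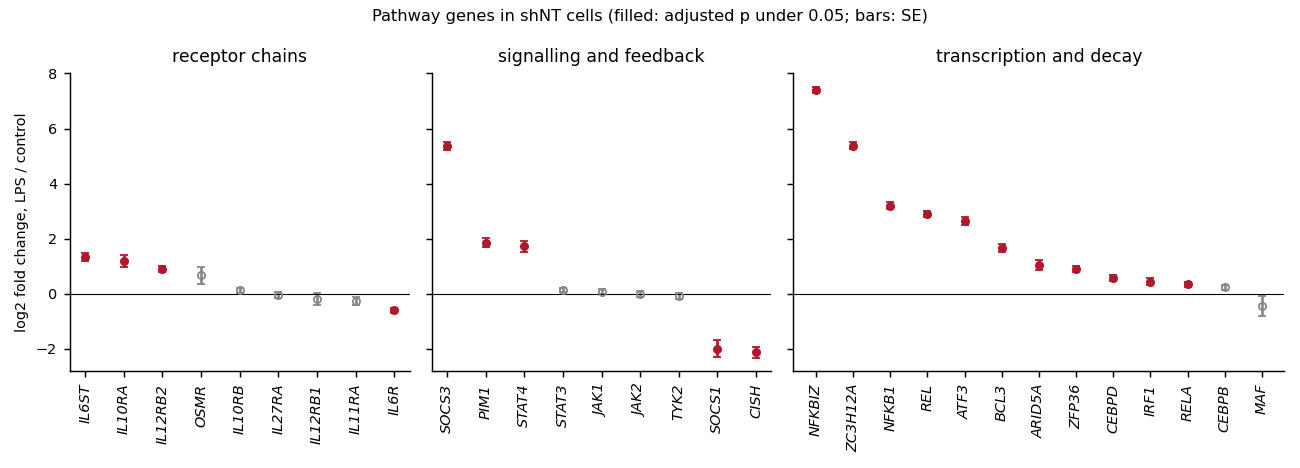
Log2 fold change of LPS against control in shNT cells (y axis) for tested genes of 3 lists, those reported here, sorted by value, with bars for the SE; filled points were called. NFKBIZ at 7.40 and SOCS3 at 5.36 lead their lists, and the receptor chains span -0.60 to 1.32.

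The same lists were compared between the lines with LPS. In shNR4A2 cells 3 of 9 receptor chains, 0 of 10 signalling and feedback genes and 3 of 13 genes for transcription and decay were higher than in shNT cells, where 4.31% of all genes were. In shNR4A3 cells the counts were 1, 1 and 3, where 3.99% of all genes were higher. None of the 3 lists held a gene called lower in either line. OSMR, which pairs with gp130 for OSM, was at 1.18, 1.86 and 2.41 TPM in shNR4A2 and at 0.486, 0.678 and 0.628 TPM in shNT libraries, a log2 fold change of 1.66 ± 0.30 (adjusted p = 0.0122). IL6R showed 0.50 ± 0.13 (adjusted p = 0.0465) and IL10RB 0.44 ± 0.10 (adjusted p = 0.0262). In shNR4A3 cells only IL10RB was called among the 9 chains, at 0.30 ± 0.07 (adjusted p = 0.0420). BCL3, a nuclear IκB protein, was higher in both lines, by 0.67 ± 0.15 (adjusted p = 0.0266) and 0.81 ± 0.14 (adjusted p = 0.0105), as was IRF1, a transcription factor of the interferon response, by 0.37 ± 0.09 (adjusted p = 0.0438) and 0.53 ± 0.08 (adjusted p = 0.00517). MAF, an activator of IL10 in myeloid cells, was called in shNR4A2 cells (1.71 ± 0.40, adjusted p = 0.0348), and the transcription factor CEBPD in shNR4A3 cells (0.74 ± 0.17, adjusted p = 0.0300). The calls of BCL3 and IRF1 in shNR4A3 cells held with any 1 library left out (adjusted p up to 0.0430 and 0.0356). That of IRF1 in shNR4A2 cells was lost with any 1 left out (adjusted p up to 0.189). The OSMR call in shNR4A2 cells was lost without shNT replicate 1 (adjusted p = 0.0555). That of BCL3 in shNR4A2 cells was lost without shNT replicate 2 or 3 or shNR4A2 replicate 1 (adjusted p up to 0.101), and that of MAF without shNT replicate 1 or 2 or shNR4A2 replicate 1 or 3 (adjusted p up to 0.110). The IL10RB call in shNR4A2 cells was kept only without shNR4A2 replicate 2 or 3 and that of IL6R only without shNR4A2 replicate 3 (adjusted p otherwise up to 0.121 and 0.161). In shNR4A3 cells the calls of IL10RB and CEBPD were kept only without shNR4A3 replicate 2 (adjusted p otherwise up to 0.156 and 0.120). Without a filter on low counts IL10RB in shNR4A3 and IRF1 in shNR4A2 cells were not called (adjusted p = 0.0922 and 0.0625). With the block, receptor chains called higher and lower numbered 6 and 0 in shNR4A2 and 5 and 1 in shNR4A3 cells, signalling genes 2 and 1 and 4 and 0, and transcription and decay genes 6 and 1 and 8 and 1, where the block called 28.1% and 21.8% of all genes in either direction. Set against each other, the shNR4A2 line had more OSMR RNA than the shNR4A3 line by 2.30 ± 0.34 (adjusted p = 0.0134) and less STAT3 RNA (-0.43 ± 0.09, adjusted p = 0.0474). The OSMR call was lost without shNR4A3 replicate 1 (adjusted p = 0.0710) and the STAT3 call with any 1 library left out (adjusted p from 0.0739 to 0.196).

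Genes with the most similar pattern to each member were found by the Pearson correlation of log2 CPM over the 18 libraries, which share the LPS contrast. For IL23A these were NFKB2 (r = 0.998), RELB (0.997) and SOD2 (0.997), and for IL12B SLC2A6 (0.997), SOD2 (0.997) and CCL4L2 (0.996), a near copy of CCL4 whose reads may be shared. For IL6 they were ACOD1 (0.992), AC006449.6 (0.991) and TP53BP2 (0.991), and for EBI3 TNFAIP2 (0.993), SLC1A2 (0.992) and SNX11 (0.992). LIF was most like TNF (0.974), CTGF (0.970) and BMP2 (0.970). OSM, which LPS left without a call, reached 0.881 with EPB41L4A-AS1, 0.842 with AC004812.2 and 0.840 with FLT3. These values are descriptions with no test.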

How the data were processed

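RNA was sequenced from both ends after polyA selection. Per the submitters' processing notes, Trimmomatic 0.36, STAR 2.5.2b and featureCounts of Subread 1.5.2 were used with GRCh38. The authors deposited whole-number counts per Ensembl gene, without normalization, together with merged exon lengths. The strand setting is not given in the sources used here. Symbols came from GENCODE 29 for 56898 of 57500 genes. Here TPM was computed from count and length. Each comparison was fitted across all genes with edgeR 4.0.16 in R 4.3.3 (filterByExpr, TMM, quasi-likelihood F-test) on its own 6 libraries, or 12 for an interaction, with Benjamini-Hochberg adjustment and a call at adjusted p under 0.05. The fit was tested on simulated data. The genes and gene lists were chosen with earlier results of these data known.

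Alternatives were DESeq2 1.42.0, RLE size factors, a fit without the low-count filter, a block for replicate number, a joint fit of the 18 libraries, a 2-fold limit and each library left out in turn. Same-numbered libraries were taken to deviate together where the correlation of their residuals exceeded 0.1 in all 3 replicates. The main fits held no term for the replicate number, so the main calls leave this out. The correlation ran from 0.159 to 0.533 in all pairwise comparisons but LPS against control in shNT cells (lowest 0.0598). It was lower in the interactions (lowest 0.0174). Named genes were the 10 members, NR4A1 to NR4A3, the genes of each pathway list called with LPS in shNT cells (the 4 largest in each direction) or called between lines with LPS (at most 4 a list), and the 3 genes most like each member with a median of at least 50 counts with LPS. Floors of 3 counts and 95% Clopper-Pearson intervals cover counting error only. Values of some listed genes are not reported here.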

Additional observations from a re-analysis of the deposited data

How the results depend on the processing

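Leaving out each library in turn gave 5 to 6 members called with LPS in shNT cells. It gave 0 to 3 members between shNR4A2 and shNT with LPS, 1 to 5 between shNR4A3 and shNT with LPS and 0 to 1 between shNR4A3 and shNT without LPS. Over all genes it called 3033 to 3461, 342 to 1477, 383 to 1693 and 649 to 975 in the same order. Without a filter on low counts 6 and 5 members were called between shNR4A2 or shNR4A3 and shNT with LPS, 1 between the knockdown lines and 1, IL23A, in the shNR4A3 interaction. That setting called 1843 of 40305, 1839 of 40278, 1102 of 39392 and 138 of 43900 genes in the same order. With the replicate block 6, 5 and 3 members were called in the first 3 of these comparisons, where 28.1%, 21.8% and 23.6% of all genes were. The block changed no other member call but that of CLCF1 with LPS in shNR4A2 cells. All 18 libraries in 1 fit called 2 members between shNR4A2 and shNT with LPS (1691 of 16935 genes), and DESeq2 called 1 between the knockdown lines (698 of 15717 genes). The cause of these changes was not tested.

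DESeq2 also called IL10 with LPS at log2 fold changes of 2.45 ± 0.82 for shNR4A2 (adjusted p = 0.0204) and 3.11 ± 1.12 for shNR4A3 (adjusted p = 0.0262), where it had not passed the edgeR filter. The fit without that filter and the fit of all 18 libraries called IL10 with LPS in these lines as well. Genes of a few counts, such as IL10, IL12A and IL27, cannot show modest changes at this depth.

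Over all genes, the replicate block called 4751 (LPS in shNR4A2 cells), 3733 and 2267 (shNR4A2 and shNR4A3 against shNT without LPS), 4385 and 3401 (the same with LPS), 3666 (between the knockdown lines) and 8 and 22 genes (interactions of shNR4A2 and shNR4A3). No filter gave 1611 genes for shNR4A2 without LPS, 1843 and 1839 for the knockdowns with LPS, 1102 between them and 29 and 138 in the interactions. All 18 libraries in 1 fit gave 4601 for LPS in shNR4A2 cells, 1691 for shNR4A2 with LPS and 1032 between the knockdown lines. DESeq2 gave 698 between the knockdown lines and 2 and 8 in the interactions. The 2-fold limit left 1188, 1382 and 1574 genes for LPS in shNT, shNR4A2 and shNR4A3 cells, 344 and 282 for the knockdowns without LPS, 388 and 350 with LPS and 149 between them. With a library left out the counts ran from 517 to 1128 and from 649 to 975 for shNR4A2 and shNR4A3 without LPS, from 342 to 1477 and from 383 to 1693 with LPS, from 94 to 217 between them, and from 0 to 8 and from 0 to 44 in the interactions.

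Differences near 0 changed sign with a library left out, all among values that were not called. They were CLCF1 (-0.33 to 0.46), EBI3 (-0.41 to 0.68), LIF (-0.82 to 0.40), OSM (-0.41 to 0.25) and NR4A1 (-0.24 to 0.11) in the shNR4A2 interaction, where DESeq2 gave -0.00065 for CLCF1, and EBI3 (-0.22 to 0.54) and NR4A2 (-0.26 to 0.048) in the shNR4A3 interaction. Between the knockdown lines they were EBI3 (-0.71 to 0.30), IL10 (-0.070 to 0.62), IL23A (-0.38 to 0.12) and IL6 (-0.42 to 0.34). For shNR4A2 they were CLCF1 with LPS (-0.55 to 0.22) and, without LPS, CLCF1 (-0.66 to 0.087), LIF (-0.96 to 0.27) and NR4A1 (-0.29 to 0.027). For shNR4A3 with LPS they were OSM (-0.18 to 0.35) and NR4A1 (-0.085 to 0.23), and for LPS in shNR4A3 cells OSM (-0.26 to 0.23).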
